A study of Homo sapiens with 6 samples.

Results

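The genes described here are 40 human genes of glycolysis and of the cellular response to low oxygen, followed through 6 RNA-seq libraries of the ovarian cancer cell lines A2780 and OVCAR3. They were chosen by gene symbol, with earlier results of these data known. Each had a single entry in the deposited expression table, among 23145 genes that could be assigned to 1 locus. By role, 24 members belong to glycolysis: 4 transporters of glucose or lactate, 15 enzymes of the pathway itself, 2 enzymes that set the level of its allosteric activator, and 3 enzymes that decide the fate of pyruvate and lactate. A further 14 are induced by hypoxia without being glycolytic, and 2 encode the alpha subunits of the hypoxia-inducible factor HIF. All 40 members reached a mean of 1 FPKM (fragments counted per transcript length and per total of mapped fragments) over the 6 libraries and entered the tests.

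The study compared cells with high and low expression of COL11A1, an alpha chain of type XI collagen, an extracellular matrix protein. Low cells were A2780 given a scrambled shRNA, A2780-shCOL11A1 given an shRNA that targets COL11A1, and OVCAR3-GFP carrying GFP. High cells were A2780CIS, a derivative of A2780 made resistant by long exposure to cisplatin, A2780 overexpressing COL11A1 (A2780-COL11A1), and OVCAR3 overexpressing it (OVCAR3-COL11A1). Each of these cultures was sequenced once. The 3 libraries of a group are therefore different constructs, and p-values measure the spread between constructs and not between repeated cultures. Both low A2780 libraries carried an shRNA and neither high A2780 library was labelled with one, so construct type and COL11A1 level cannot be told apart within A2780. All cultures were grown in RPMI medium with serum, and the labels name no low-oxygen treatment.

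Glycolysis breaks glucose down to pyruvate in the cytosol and yields ATP without oxygen. Glucose enters through SLC2A transporters, is trapped by hexokinase, is committed by phosphofructokinase, and leaves as lactate through SLC16A transporters once lactate dehydrogenase has reduced the pyruvate. Tumour cells often run the pathway at high rate even with oxygen present. When oxygen is scarce, the prolyl hydroxylases EGLN1 and EGLN3 no longer mark the HIF alpha subunits for destruction, and HIF binds short response elements in the promoters of most glycolytic genes and of genes for angiogenesis, mitophagy and pH control. HIF activity is set mainly at the level of protein, so the mRNA of HIF1A or EPAS1 is not a measure of it.

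COL11A1 itself stood at 4.23 FPKM with the scrambled and 0.670 FPKM with the COL11A1 shRNA, against 297 FPKM in A2780CIS and 8.17 FPKM in A2780-COL11A1. OVCAR3 had 0.0258 FPKM with GFP and 1.67 FPKM with COL11A1. The order followed the labels within each line, but the level in A2780CIS was far above that of either overexpressing line. Read depth, judged from the most common ratio between libraries over genes low in both, was 0.753 in A2780CIS, 1.57 in A2780-COL11A1 and 0.497 in OVCAR3-COL11A1 relative to the scrambled control. The estimate takes most of these low genes to have equal read numbers. Absolute depth is unknown, so no counting interval is given. Of 13 epithelial and ovarian carcinoma markers, all 13 reached 1 FPKM in both OVCAR3 libraries and 1 to 3 did so in the A2780 libraries, where the summed level was 8.36 to 47.0 FPKM against 3262 FPKM in OVCAR3-GFP and 1659 FPKM in OVCAR3-COL11A1. Of 9 fibroblast markers, 4 to 7 reached 1 FPKM in A2780 and 1 or 2 in OVCAR3. None of 5 endothelial and at most 2 of 6 leukocyte markers reached 1 FPKM in any library. All 8 proliferation markers were expressed everywhere, with sums from 208 FPKM in A2780-shCOL11A1 to 297 FPKM in A2780CIS, and their part in the results below was not tested.

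**Figure D1:**
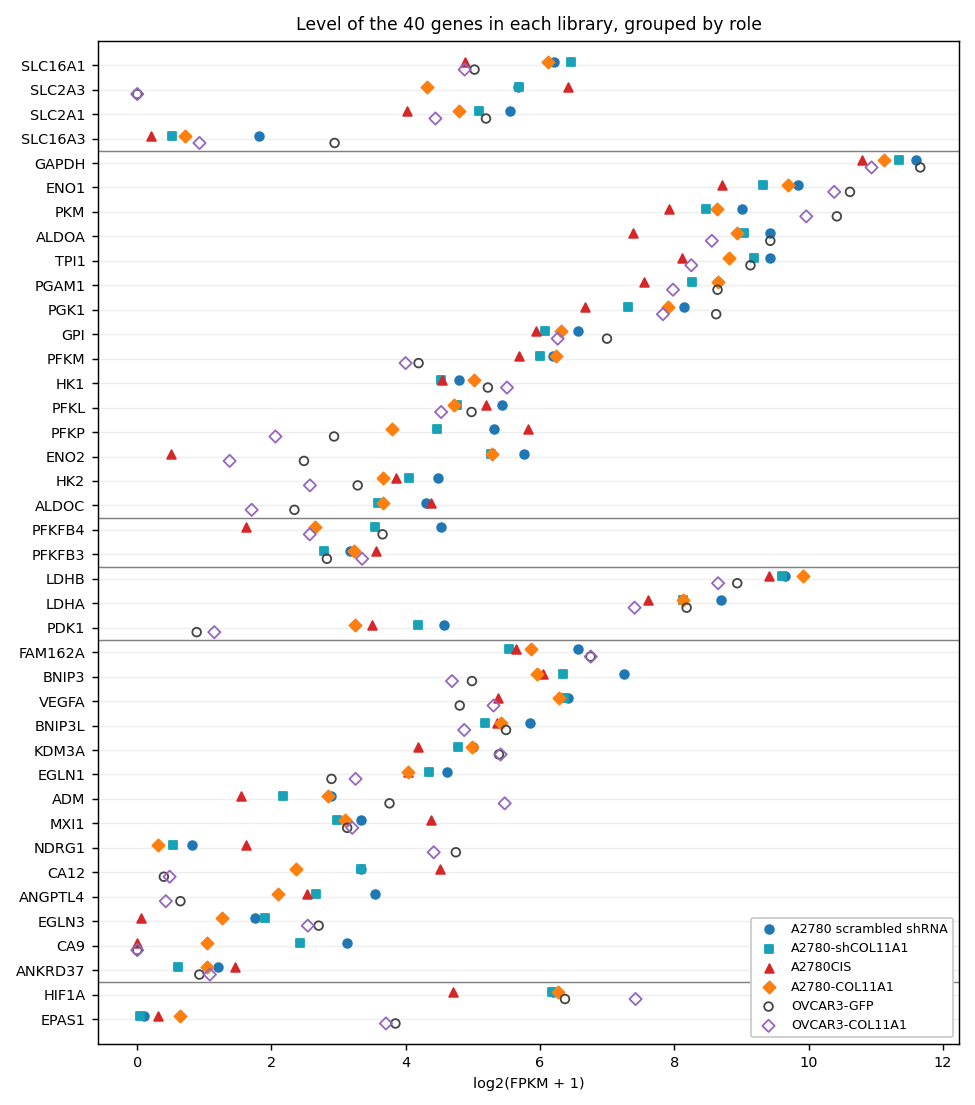
Level of the 40 members in the 6 libraries as log2(FPKM + 1), in blocks by role, with 1 symbol per library (filled for A2780, open for OVCAR3) and no error bars. GAPDH is the most abundant member in every library, and SLC2A3 and CA9 lie at the lowest value of the table in both OVCAR3 libraries.

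The first comparison asked how the members differed between COL11A1-high and COL11A1-low cells over both lines. Glycolytic transcripts stood on the lower side in the high group: 22 of 24 glycolytic members had a negative difference and 2 a positive one, HK1 and PFKFB3, with a median difference of -0.51 on the scale log2(FPKM + 1). The 14 hypoxia-induced members that are not glycolytic were less uniform, with 9 negative and 5 positive differences and a median of -0.20. Over all 12841 genes tested the median was -0.01, and 51.0% of genes had a negative difference against 32 of the 40 members. The members were chosen with earlier results of these data known, and these counts carry no test. No single gene carried the group difference past the threshold. With limma (group and cell line as terms, Benjamini-Hochberg adjustment over all genes, 5% threshold), 0 of 12841 genes passed, the smallest adjusted p was 0.731, and 0% of genes and 0 members were called. COL11A1 itself did not pass, with a difference of 3.22 ± 1.39 (SE, limma, unadjusted p = 0.0607, adjusted p = 0.731). At an unadjusted limma p under 0.05, 6.48% of genes stood out, 4.07% with lower and 2.41% with higher values in the high group. Of the members, 6 were in the lower set, HK2, PFKFB4, TPI1, LDHA, SLC2A1 and CA9, and 0 in the higher set. In GRCh37 (hg19), the build of the table's loci, these genes span chr2:75059781-75120481 (HK2), chr3:48555116-48594227 (PFKFB4), chr12:6976583-6980110 (TPI1), chr11:18415935-18429765 (LDHA), chr1:43391045-43424847 (SLC2A1) and chr9:35673914-35681154 (CA9). TPI1 overlaps the entry of SPSB2 and SLC2A1 that of SLC2A1-AS1. PFKM, PFKFB3, ENO1, SLC16A1, ANKRD37 and HIF1A also overlap another entry, and whether strand was used in assigning reads is not given in the sources used here. In bulk RNA, fewer cells expressing a gene and less RNA per cell cannot be told apart.

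The libraries were also compared by whether the groups overlapped. For 11 of 40 members every high library lay below every low library within A2780 and again within OVCAR3, a pattern shown by 12.3% of all genes tested. These were the glycolytic genes HK2, PFKFB4, ALDOA, TPI1, GAPDH, LDHA, SLC2A1 and SLC16A1 and the hypoxia-induced genes BNIP3, EGLN3 and ANGPTL4. The reverse pattern, high above low in both lines, was shown by 10.1% of genes and by 1 member, PFKFB3. Opposite directions in the lines, each without overlap, were shown by 23.5% of genes and by 4 members, PDK1, VEGFA, EGLN1 and EPAS1. Within A2780 alone, 15 members had both high libraries below both low ones, against 27.9% of genes. Without the scrambled library, the median of the glycolytic members was -0.35 and that of the hypoxia-induced members -0.06, with 22 of 24 and 8 of 14 differences negative, and PFKFB4 alone was at an unadjusted limma p under 0.05. Without either OVCAR3 library 3 members were, PFKFB4, CA9 and PDK1, and without A2780-COL11A1 there were 10, among them ALDOA, ENO2, GAPDH and PGK1. PFKFB4 was in the set under each of the 6 omissions, at -1.90 to -1.26. Leaving out either OVCAR3 library gives the same group estimate, that of the A2780 libraries alone.

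**Figure D2:**
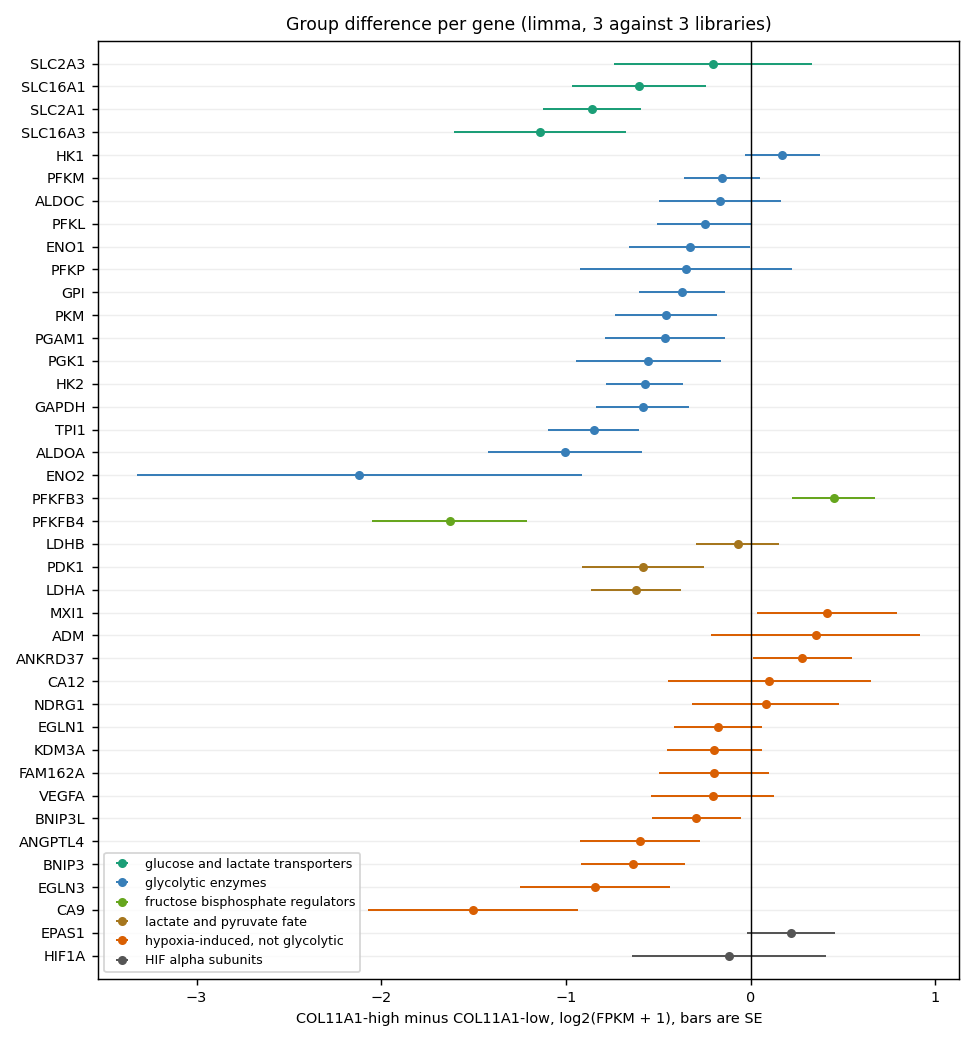
Difference between COL11A1-high and COL11A1-low libraries for each member in log2(FPKM + 1), adjusted for cell line, with the standard error from limma as bars (3 libraries per group). Glycolytic members other than HK1 and PFKFB3 lie below 0, and the widest bar belongs to ENO2, at -2.12 with a standard error of 1.203.

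Among the transporters, SLC2A1 encodes GLUT1, the main glucose carrier of many tumour cells. In A2780 it stood at 45.8 FPKM with the scrambled shRNA and 33.1 FPKM with the COL11A1 shRNA, against 15.2 FPKM in A2780CIS and 26.7 FPKM in A2780-COL11A1. In OVCAR3 it was at 35.6 FPKM with GFP and 20.7 FPKM with COL11A1. Every high library was thus below every low library of its line, and the limma difference was -0.86 ± 0.27 (SE, 3 against 3 libraries, unadjusted p = 0.0184, adjusted p = 0.731). SLC2A3, which encodes the high-affinity carrier GLUT3, had a signal in the A2780 libraries only. Its levels there were 49.9 and 50.3 FPKM in the scrambled and shCOL11A1 libraries, 84.8 FPKM in A2780CIS and 18.9 FPKM in A2780-COL11A1, while both OVCAR3 libraries were listed at the lowest value of the table, 0.001 FPKM. The high A2780 libraries therefore lay on opposite sides of the low ones. SLC16A1, the lactate and pyruvate carrier MCT1, was at 73.0 and 87.4 FPKM in the low A2780 libraries, 28.6 FPKM in A2780CIS, 68.7 FPKM in A2780-COL11A1, and 31.5 and 28.4 FPKM in OVCAR3-GFP and OVCAR3-COL11A1. Outside A2780CIS the high libraries were close to the low ones. SLC16A3, the lactate exporter MCT4 and a hypoxia target, was low throughout, at 2.502 and 0.429 FPKM in the low A2780 libraries and 0.151 and 0.643 FPKM in A2780CIS and A2780-COL11A1. In OVCAR3 it was at 6.68 FPKM with GFP and 0.903 FPKM with COL11A1, a ratio of 7.40 between 2 single libraries.

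At the entry to glycolysis, HK2, the hexokinase induced in many tumours, was at 21.3 and 15.6 FPKM in the low A2780 libraries, 13.5 and 11.7 FPKM in the high ones, and 8.74 against 4.95 FPKM in OVCAR3. Its groups did not overlap within either line, and the limma difference was -0.57 ± 0.21 (unadjusted p = 0.0349). HK1, the hexokinase found in most tissues, ranged from 22.0 to 44.5 FPKM and had a difference of 0.17 ± 0.20. Of the phosphofructokinases, which catalyse the committing step, PFKL ranged from 22.1 to 42.4 FPKM, PFKM from 15.0 to 74.7 FPKM and PFKP from 3.17 to 55.6 FPKM. PFKP was spread most within A2780, at 38.9 and 21.1 FPKM in the low libraries, 55.6 FPKM in A2780CIS and 12.8 FPKM in A2780-COL11A1, and stood at 6.63 and 3.17 FPKM in OVCAR3. GPI, the isomerase between these steps, ranged from 60.6 to 127 FPKM with a difference of -0.37 ± 0.23.

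In the later steps, ALDOA, the aldolase that splits the hexose bisphosphate, was at 689 and 526 FPKM in the low A2780 libraries, 167 FPKM in A2780CIS, 489 FPKM in A2780-COL11A1, and 688 against 376 FPKM in OVCAR3-GFP and OVCAR3-COL11A1. TPI1, which interconverts the triose phosphates, was at 686 and 581 FPKM in the low A2780 libraries, 277 and 451 FPKM in the high ones, and 561 against 304 FPKM in OVCAR3. Both genes were lower in each high library than in each low library of its line, with limma differences of -1.01 ± 0.42 for ALDOA (unadjusted p = 0.0543) and -0.85 ± 0.24 for TPI1 (unadjusted p = 0.0138). GAPDH, the dehydrogenase often used as a loading control, was at 3109 and 2610.1 FPKM in the low A2780 libraries, 1783 and 2236 FPKM in the high ones, and 3240.2 against 1959 FPKM in OVCAR3. It showed no overlap within a line either, with a difference of -0.58 ± 0.25 (limma, unadjusted p = 0.0608). PGK1, the ATP-forming kinase, was at 281 and 157 FPKM in the low A2780 libraries, 101 and 239 FPKM in the high ones, and 393 against 227 FPKM in OVCAR3. PGAM1, the mutase, was at 401 and 308 FPKM, 187 and 399.7 FPKM, and 399 against 251 FPKM in the same order. In both, A2780-COL11A1 lay between the low libraries. PGAM4, a near-identical retrocopy of PGAM1, is counted separately in the table, and how reads were divided between them is not given in the sources used here; the same holds for GAPDH and LDHA and their processed pseudogenes, and for SLC2A3 and SLC2A14.

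ENO1, the ubiquitous enolase, was at 912 and 637 FPKM in the low A2780 libraries, 417 FPKM in A2780CIS, 824 FPKM in A2780-COL11A1, and 1568 against 1332 FPKM in OVCAR3. ENO2, the neuronal enolase, was at 53.4 and 37.5 FPKM in the low A2780 libraries and 38.0 FPKM in A2780-COL11A1 but 0.413 FPKM in A2780CIS, and at 4.60 against 1.60 FPKM in OVCAR3. A2780CIS stood alone in A2780 for this gene. PKM, which encodes the pyruvate kinase of most tumours, was at 513 and 353 FPKM in the low A2780 libraries, 241 and 398 FPKM in the high ones, and 1369 against 998 FPKM in OVCAR3. ALDOC, the brain aldolase, was at 18.7 and 11.1 FPKM, 19.7 and 11.6 FPKM, and 4.07 against 2.26 FPKM, and did not follow COL11A1 in A2780. Summed over the 15 enzymes, the level was 6961 and 5433 FPKM in the low A2780 libraries, 3429 FPKM in A2780CIS, 5319 FPKM in A2780-COL11A1, and 8453 against 5617 FPKM in OVCAR3. As a share of all FPKM these sums were 1.36%, 1.11%, 0.649% and 1.02% in A2780 and 1.71% and 1.32% in OVCAR3, so the enzymes took a smaller share in every high library than in the low libraries of its line.

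PFKFB4 had the smallest unadjusted p of all members. PFKFB3 and PFKFB4 encode bifunctional enzymes that make and degrade the fructose bisphosphate that activates phosphofructokinase, and PFKFB4 is a known hypoxia target. PFKFB4 stood at 22.0 and 10.6 FPKM in the low A2780 libraries, 2.06 FPKM in A2780CIS, 5.24 FPKM in A2780-COL11A1, and 11.6 against 4.94 FPKM in OVCAR3. All 3 high libraries lay below all 3 low ones, and the limma difference was -1.63 ± 0.42 (unadjusted p = 0.00865, adjusted p = 0.731). PFKFB3 went the other way, with 8.03 and 5.91 FPKM in the low A2780 libraries, 10.8 and 8.34 FPKM in the high ones, and 6.09 against 9.20 FPKM in OVCAR3. Its difference was 0.45 ± 0.22 (limma, unadjusted p = 0.0914). As a share of the PFKFB3 and PFKFB4 sum, PFKFB4 made up 73.3% with the scrambled shRNA and 64.2% in A2780-shCOL11A1 against 16.0% in A2780CIS and 38.6% in A2780-COL11A1, and 65.6% in OVCAR3-GFP against 34.9% in OVCAR3-COL11A1. In each line PFKFB4 was the larger transcript of the pair in the low libraries and the smaller in the high ones.

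At the end of the pathway, LDHA, the lactate dehydrogenase subunit that favours lactate formation, was at 413 and 280.0 FPKM in the low A2780 libraries, 195 and 279 FPKM in the high ones, and 289.6 against 169 FPKM in OVCAR3. The limma difference was -0.62 ± 0.24 (unadjusted p = 0.0451), and the gap between A2780-shCOL11A1 and A2780-COL11A1 was small. LDHB, the subunit that favours the return to pyruvate, was at 799 and 780.0 FPKM, 679 and 968 FPKM, and 489 against 401 FPKM, with a difference of -0.07 ± 0.22. PDK1, the kinase that shuts off pyruvate dehydrogenase and is a HIF target, was at 22.7 and 17.1 FPKM in the low A2780 libraries and 10.3 and 8.44 FPKM in the high ones. In OVCAR3 it was low, at 0.848 FPKM with GFP and 1.22 FPKM with COL11A1, so its direction differed between the lines.

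**Figure D3:**
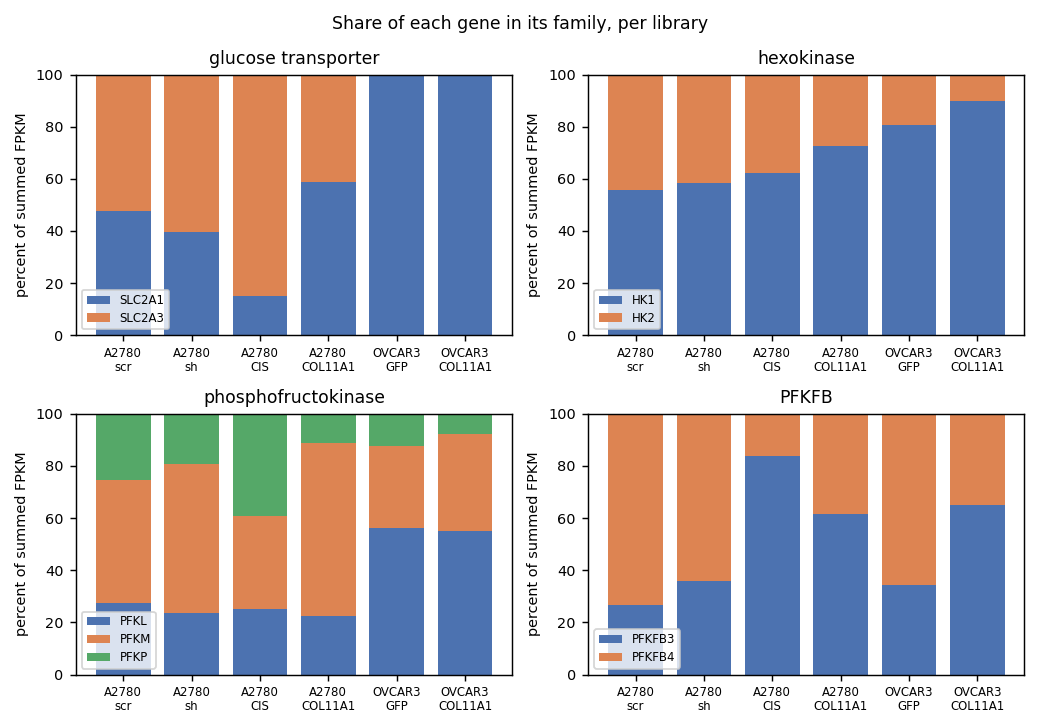
Share of a gene family's summed FPKM held by each paralogue in each library, in percent, as stacked bars for glucose transporters, hexokinases, phosphofructokinases and PFKFB enzymes. PFKFB4 holds 64.2% to 73.3% of its pair in the low and 16.0% to 38.6% in the high A2780 libraries, and SLC2A1 holds nearly all of its pair in both OVCAR3 libraries.

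HK1 made up 55.7% to 72.8% of hexokinase transcripts (HK1 and HK2) in A2780 and 80.6% and 90.0% in OVCAR3, and within each line the high libraries lay above the low ones. PFKL, the liver isoform, held 22.4% to 27.6% of phosphofructokinase FPKM in A2780 and 56.1% and 54.9% in OVCAR3. In A2780 the muscle isoform PFKM led in 3 libraries with 47.1%, 57.1% and 66.3%, while in A2780CIS the platelet isoform PFKP led with 39.3% over 35.6% for PFKM. LDHA was 22.3% to 34.1% of LDHA plus LDHB in A2780 and 37.2% and 29.6% in OVCAR3. These shares set FPKM, a value per transcript length, side by side, and they carry no test.

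Of the hypoxia-induced members outside glycolysis, CA9 and BNIP3 had the smallest unadjusted limma p. CA9, a cell-surface carbonic anhydrase and a widely used hypoxia marker, was at 7.69 and 4.38 FPKM in the low A2780 libraries, 1.05 FPKM in A2780-COL11A1, and listed at 0.001 FPKM, the table's lowest value, in A2780CIS and both OVCAR3 libraries. Its limma difference was -1.50 ± 0.57 (unadjusted p = 0.0395), which rests on the A2780 libraries since both OVCAR3 libraries stand at that lowest value. CA12, a related carbonic anhydrase, took another order, at 9.04 and 9.12 FPKM in the low A2780 libraries, 21.8 FPKM in A2780CIS and 4.17 FPKM in A2780-COL11A1, and 0.317 and 0.398 FPKM in OVCAR3. BNIP3, a mitophagy receptor, was at 152 and 80.5 FPKM in the low A2780 libraries, 64.7 and 61.2 FPKM in the high ones, and 30.7 against 24.8 FPKM in OVCAR3, without overlap in a line (difference -0.64 ± 0.28, limma, unadjusted p = 0.0652). Its relative BNIP3L ranged from 28.3 to 56.8 FPKM. ANGPTL4, a secreted lipase inhibitor, was at 10.6 and 5.37 FPKM, 4.80 and 3.27 FPKM, and 0.563 against 0.344 FPKM, also without overlap in a line.

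VEGFA, the main angiogenic growth factor, was at 84.8 and 81.1 FPKM in the low A2780 libraries, 40.5 and 76.9 FPKM in the high ones, and 26.9 FPKM in OVCAR3-GFP against 38.6 FPKM in OVCAR3-COL11A1. ADM, which encodes the vasodilator adrenomedullin, was at 6.37 and 3.50 FPKM, 1.91 and 6.20 FPKM, and 12.5 against 43.4 FPKM, its highest value by far in OVCAR3-COL11A1. Among the regulators, the oxygen-sensing hydroxylase EGLN1 ranged from 6.43 to 23.4 FPKM. EGLN3, also a HIF target, was at 2.39 and 2.75 FPKM in the low A2780 libraries, 0.0364 FPKM in A2780CIS, 1.39 FPKM in A2780-COL11A1, and 5.51 against 4.82 FPKM in OVCAR3. MXI1, a MYC antagonist, was at 9.06 and 6.89 FPKM, 19.8 and 7.56 FPKM, and 7.74 against 8.21 FPKM, so A2780CIS stood apart. FAM162A, a mitochondrial protein, was at 93.9 and 45.4 FPKM, 49.0 and 57.4 FPKM, and 107 FPKM in both OVCAR3 libraries. NDRG1, a stress-induced gene, stayed at 0.234 to 2.09 FPKM in A2780 and reached 25.8 and 20.4 FPKM in OVCAR3. The demethylase gene KDM3A ranged from 17.2 to 41.6 FPKM and ANKRD37 from 0.532 to 1.75 FPKM.

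HIF1A, the ubiquitous alpha subunit, was at 72.1 and 71.8 FPKM in the low A2780 libraries and 75.8 FPKM in A2780-COL11A1, but 25.1 FPKM in A2780CIS. In OVCAR3 it was at 81.8 FPKM with GFP and 171 FPKM with COL11A1. The group difference was -0.12 ± 0.53, since A2780CIS and OVCAR3-COL11A1 lay on opposite sides of their controls. EPAS1, the alpha subunit also called HIF2A, was at 0.0314 to 0.548 FPKM in A2780 and 13.4 and 12.04 FPKM in OVCAR3. It made up 14.1% and 6.59% of the HIF1A and EPAS1 sum in OVCAR3 and less than 1% in each A2780 library.

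HIF binds DNA at the core ACGTG or GCGTG, and promoters are shown for 4 members: PFKFB4 and CA9, with the largest differences of the 6 members at an unadjusted limma p under 0.05, and LDHA and BNIP3, whose promoters hold clusters of the core. Each sequence is the 250 bases before the RefSeq start in GRCh38.p14, written 5′ to 3′ on the gene's strand, with capitals marking the core on either strand. PFKFB4 is on the minus strand at chr3:48556804-48557053, LDHA on the plus strand at chr11:18394313-18394562, BNIP3 on the minus strand at chr10:131981924-131982173 and CA9 on the plus strand at chr9:35673678-35673927.

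PFKFB4: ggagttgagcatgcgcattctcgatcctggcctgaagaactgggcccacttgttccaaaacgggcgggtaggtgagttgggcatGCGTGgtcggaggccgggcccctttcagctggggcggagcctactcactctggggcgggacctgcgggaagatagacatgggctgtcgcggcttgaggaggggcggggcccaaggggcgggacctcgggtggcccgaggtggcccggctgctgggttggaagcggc
LDHA: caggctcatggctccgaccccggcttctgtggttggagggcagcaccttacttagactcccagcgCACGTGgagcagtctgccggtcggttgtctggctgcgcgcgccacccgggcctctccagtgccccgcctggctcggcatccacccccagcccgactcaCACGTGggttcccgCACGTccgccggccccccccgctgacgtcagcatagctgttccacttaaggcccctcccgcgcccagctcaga
BNIP3: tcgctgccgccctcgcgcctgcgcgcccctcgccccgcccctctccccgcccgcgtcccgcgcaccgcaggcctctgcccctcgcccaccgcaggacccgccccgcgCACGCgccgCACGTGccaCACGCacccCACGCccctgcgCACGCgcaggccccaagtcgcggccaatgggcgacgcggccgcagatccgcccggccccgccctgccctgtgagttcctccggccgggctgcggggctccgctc
CA9: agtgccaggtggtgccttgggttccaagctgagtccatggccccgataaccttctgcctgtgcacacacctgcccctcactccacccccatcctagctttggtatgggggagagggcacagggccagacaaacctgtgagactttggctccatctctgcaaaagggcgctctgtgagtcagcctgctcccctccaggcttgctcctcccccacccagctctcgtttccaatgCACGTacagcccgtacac

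PFKFB4 has a single GCGTG, from base -166 to -162 before the start, and CA9 a single ACGTG on the opposite strand from -18 to -14. LDHA has 5 ACGTG matches, of which 4 are the strands of a pair of palindromes CACGTG at -185 to -180 and -87 to -82 and 1 lies at -73 to -69. BNIP3 has 6 matches between -143 and -100, of which 2 are the strands of a palindrome CACGTG at -134 to -129. ALDOC, with 5 matches, and FAM162A, with 4, are not shown, and neither was lower in all high libraries of each line. An entry was found for 35 of the 40 members, and SLC2A3, SLC16A1, BNIP3L, VEGFA and NDRG1 had none. The core occurred on either strand in 23 of 35 members (65.7%), against 58.1% of 9391 promoters of tested genes and 43.1% of all 27305 promoters of the same length. ACGTG alone occurred in 14 of 35, against 23.6% of the promoters of tested genes, whereas 2 or more matches occurred in 9 of 35 members (25.7%) against 29.2%. Each strand of a palindrome CACGTG counts as a match in these shares, and GAPDH is among the 9 through a single palindrome. By role, 9 of 11 hypoxia-induced members and 12 of 22 glycolytic members held the core. Median GC content was 68.4% in members and 65.2% in promoters of tested genes, and its part in these shares was not tested. No match was found in this window for 12 members. SLC2A1, TPI1 and EGLN3 were lower in all high libraries of each line, and the others were HK1, LDHB, MXI1, PDK1, PFKM, PFKP, PGAM1, PKM and SLC16A3.

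Each construct was then compared with a control of its own line. These are comparisons of 1 library with 1, with no test, and a gene is counted at a difference of at least 1 in log2(FPKM + 1), which is 2-fold for abundant genes. A2780-COL11A1, A2780-shCOL11A1 and A2780CIS share the scrambled control, so their values are given side by side and not as repeats. A2780-COL11A1 was 2-fold lower than the scrambled control for 8 members and higher for 0, while 1.91% of all genes were lower and 0.849% higher. The 8 were PFKP, PFKFB4, SLC2A3, SLC16A3, PDK1, CA9, BNIP3 and ANGPTL4, and in FPKM CA9 was 7.29 times lower, PFKFB4 4.20 times lower and PFKP 3.03 times lower. All 14 hypoxia-induced members were lower by some amount, and over all members 34 of 40 were lower against 54.6% of genes. With each library scaled to the same median, 12 of 14 and 30 of 40 were lower, and with quantile normalization 12 and 33.

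The knockdown library was set against the same scrambled control, so its values and those of A2780-COL11A1 are not independent. A2780-shCOL11A1 was also lower than the scrambled control for 36 of 40 members, against 49.3% of genes, with medians of -0.44 for the glycolytic and -0.47 for the hypoxia-induced members. At 2-fold, 2 members were lower, SLC16A3 and FAM162A, and 0 higher, with backgrounds of 0.195% and 0.179%. When A2780-COL11A1 was set against A2780-shCOL11A1 instead of the scrambled library, the glycolytic median was 0.01 and the hypoxia-induced median -0.15, with 20 members lower and 20 higher, while 53.3% of genes were lower. SLC2A3 and CA9 alone were 2-fold lower in that pair (background 2.86%), with 0 members 2-fold higher (background 1.76%). For the same pair, scaling each library to the same median left 16 members lower and 24 higher, and quantile normalization 21 and 19. The scrambled library was the highest of the 4 A2780 libraries for 25 of 40 members, against 17.4% of genes, and the lowest for 0, against 13.8%.

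A2780CIS differed most from the scrambled control. At 2-fold, 20 members were lower and 2 higher, against 10.0% and 8.43% of genes. The lower ones were PFKFB4, ALDOA, TPI1, PGK1, PGAM1, ENO1, ENO2, PKM, LDHA, SLC2A1, SLC16A1, SLC16A3, PDK1, CA9, BNIP3, VEGFA, ADM, EGLN3, ANGPTL4 and HIF1A. In FPKM, PFKFB4 was 10.7 times lower, ALDOA 4.13 times, SLC2A1 3.01 times, HIF1A 2.87 times and PGK1 2.78 times. ENO2, an abundant transcript in the other A2780 libraries, was under 1 FPKM. Counting any size, 31 of 40 members were lower, against 54.3% of genes. The 2 higher members were CA12, at a ratio of 2.42, and MXI1, at 2.18. A2780CIS was the lowest of the A2780 libraries for 23 of 40 members, against 40.3% of genes. It also had the highest summed level of proliferation markers. Its fibroblast markers summed to 588 FPKM, against 155 to 269 FPKM in the other A2780 libraries, but 548 FPKM of that was COL3A1. PDGFRA was at 1.42 FPKM against 44.1 to 66.1 FPKM, and 4 of 9 markers reached 1 FPKM, the fewest in A2780. The part of these markers in the differences was not tested.

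**Figure D4:**
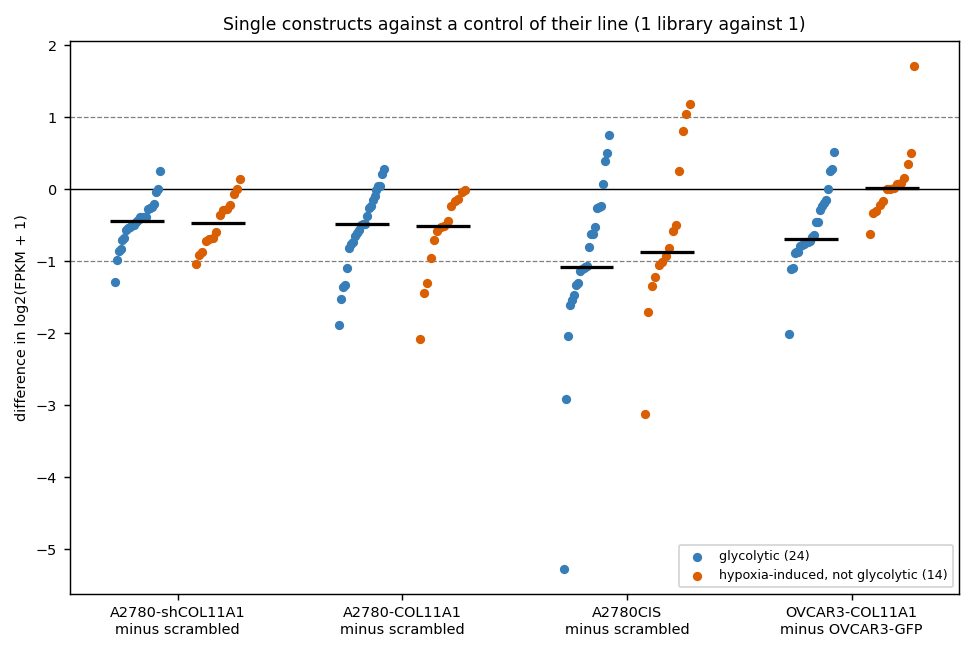
Difference of each member in log2(FPKM + 1) for 4 pairs of single libraries; points are genes, black bars the medians of the glycolytic and hypoxia-induced members, and dashed lines a difference of 1 either way. The glycolytic median is -0.44, -0.49 and -1.07 for A2780-shCOL11A1, A2780-COL11A1 and A2780CIS against the shared scrambled control, and -0.69 for OVCAR3-COL11A1 against OVCAR3-GFP.

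In OVCAR3 the glycolytic members were mostly lower with COL11A1, and the hypoxia-induced members were divided. OVCAR3-COL11A1 was lower than OVCAR3-GFP for 20 of 24 glycolytic members with a median of -0.69, while 5 of 14 hypoxia-induced members were lower, with a median of 0.01. Over all genes 45.4% were lower and the median was 0.05. With each library scaled to the same median, 21 glycolytic and 9 hypoxia-induced members were lower. These counts take in SLC2A3 and CA9, which stand at the lowest value of the table in both libraries and were equal before scaling. With quantile normalization 16 and 7 were lower, so the hypoxia-induced count does not keep its side. At 2-fold, 3 members were lower, PFKFB4, ENO2 and SLC16A3 (background 4.18%), and 2 were higher, ADM and HIF1A (background 6.79%). In FPKM, ADM was higher by a ratio of 3.47 and HIF1A by 2.09. Among the enzymes, 14 of 15 were lower, and HK1 was the exception at 36.3 against 44.5 FPKM. OVCAR3-COL11A1 is the library with the lowest relative depth, 0.497, and its epithelial and ovarian carcinoma markers were lower in the same pair, 11 of 12 tested with a median of -1.21 and 7 at 2-fold. KRT8 was at 1247 FPKM with GFP and 565 FPKM with COL11A1, CDH1 at 48.2 and 16.03 FPKM, and CLDN4 at 228 and 8.84 FPKM. The part of depth and of these markers in the values was not tested.

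Whether the group difference itself varied between lines was tested with an interaction term. Here 0 of 12841 genes passed in limma (smallest adjusted p 0.0839), and 13.6% reached an unadjusted p under 0.05, with PDK1 as the only member among them. The PDK1 interaction was 1.26 ± 0.41 (limma, adjusted p = 0.357). Without A2780-COL11A1, 22.2% of genes and 5 members passed, ENO2, CA12, VEGFA, EGLN3 and HIF1A. In that fit the spread comes from the scrambled and shCOL11A1 libraries alone, and the high A2780 library is A2780CIS.

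The lines differed at many members, though not at more than genes in general. In limma, 17 members differed, against 45.2% of genes. OVCAR3 was higher than A2780 for 6 members, against 19.6% of genes, and lower for 11, against 25.6%, at a Benjamini-Hochberg threshold of 5%. Higher in OVCAR3 were NDRG1 (3.76 ± 0.42, adjusted p = 0.00161), EPAS1 (3.51 ± 0.25, adjusted p = 0.000481), ADM (2.26 ± 0.60), PKM (1.69 ± 0.29), EGLN3 (1.38 ± 0.43) and ENO1 (1.11 ± 0.35). Lower in OVCAR3 were SLC2A3, listed at the lowest value there, CA12 (-2.95 ± 0.58), PDK1 (-2.85 ± 0.35), PFKP (-2.35 ± 0.61), ANGPTL4 (-2.17 ± 0.35), ALDOC (-1.96 ± 0.35), PFKM (-1.93 ± 0.22), BNIP3 (-1.56 ± 0.30), EGLN1 (-1.18 ± 0.25), HK2 (-1.09 ± 0.22) and LDHB (-0.85 ± 0.24). Median scaling moved the median of all genes in this comparison by 0.17. Both OVCAR3 libraries lay above all 4 A2780 libraries for 10 members, against 26.5% of genes, and below them for 12, against 34.5%.

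Genes next to these pathways did not pass the limma test either. Among 15 tested isoenzymes and paralogues outside the member list, 10 had negative and 5 positive group differences with a median of -0.16. The muscle enolase ENO3 was abundant in A2780, at 119 and 99.4 FPKM in the low libraries and 88.3 FPKM in A2780-COL11A1, but 19.4 FPKM in A2780CIS, and 0.723 and 2.16 FPKM in OVCAR3. SLC2A6, a further glucose carrier gene, had a difference of 0.85 ± 0.29. For gluconeogenesis and glycogen, 6 of 11 tested genes were positive and 5 negative, with a median of 0.00, and pyruvate carboxylase, PC, was at -0.90 ± 0.31. The pentose phosphate pathway, which branches from glycolysis to make NADPH, had 5 positive and 3 negative differences and a median of 0.07. Its NADPH-forming enzyme PGD was at -0.58 ± 0.29 and the transketolase TKT at -0.42 ± 0.28. For entry of pyruvate into mitochondria, 8 of 11 genes were positive with a median of 0.10, among them the carrier subunit MPC1 (0.43 ± 0.27), while the kinase PDK2 was at -0.60 ± 0.25.

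A further 28 genes known to be induced by hypoxia had 21 negative and 7 positive group differences and a median of -0.23. At an unadjusted limma p under 0.05, 3 were lower and 2 higher. RAB20, a small GTPase, was at 4.56 and 3.10 FPKM in the low A2780 libraries, 0.841 and 0.628 FPKM in the high ones, and 4.81 against 1.88 FPKM in OVCAR3. PLOD2, a lysyl hydroxylase for collagen, was at 8.69 and 4.26 FPKM, 2.22 and 1.37 FPKM, and 15.0 against 8.20 FPKM. Both showed no overlap within a line, with differences of -1.31 ± 0.25 and -1.18 ± 0.33. INSIG2, a sterol regulator, was at -1.52 ± 0.77, and CITED2, which competes with HIF for its coactivator, at 1.48 ± 1.48. CITED2 was at 149 FPKM in A2780CIS and 1.32 to 4.13 FPKM in the other A2780 libraries. Among 11 tested genes that control HIF, 6 differences were positive and 5 negative with a median of 0.01. At an unadjusted limma p under 0.05, 1 was higher and 2 were lower. ARNT2 had a difference of 0.91 ± 0.66, with 5.46 FPKM in A2780CIS and 0.108 to 0.171 FPKM in the other A2780 libraries. TCEB1 was at 28.6 and 29.1 FPKM in the low A2780 libraries and 45.6 and 50.1 FPKM in the high ones. In OVCAR3 TCEB1 was at 76.9 FPKM with GFP and 84.1 FPKM with COL11A1. The hydroxylase EGLN2 was at 66.5 and 77.3 FPKM in the low A2780 libraries, 24.6 and 44.1 FPKM in the high ones, and 25.5 against 14.9 FPKM in OVCAR3 (-0.98 ± 0.26), and the HIF inhibitor HIF1AN had a difference of -0.72 ± 0.22. Of 7 genes for MYC and glucose sensing, 5 were positive with a median of 0.30, led by the glucose-responsive arrestins TXNIP (1.39 ± 0.24) and ARRDC4 (1.34 ± 0.26). No gene of these lists was called, against 0% of all genes.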

How the data were processed

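RNA of 6 cultures was sequenced once each; per the labels' protocols, poly-A RNA went into a stranded kit and single-end reads were made on a NextSeq instrument. The authors deposited 1 table of FPKM, named so in its header. Text marks such as LOWDATA fill 1.09% of the cells, so the deposited unit was entered as other, and numbers were read as FPKM. STAR 2.5.0, RSEM 1.2.25 and the build GRCh38 are listed, without roles, in the submitters' processing notes. The loci in the table are GRCh37 positions and its columns look like Cufflinks output, so which program made the FPKM is unknown. The filter the authors applied is not given in the sources used here. Of 25275 entries, 1304 on alternate or unplaced contigs, names with several loci (308), entries without numbers (106) and names turned into dates (24) were left out, and 23145 genes were kept. FPKM summed to 426102 to 528744 per library. FPKM are not counts, so log2(FPKM + 1) was tested for 12841 genes averaging 1 FPKM or more, in limma 3.58.1 (R 4.3.3) with group and cell line as terms and an intensity trend, two-sided, with Benjamini-Hochberg adjustment over all genes tested; this scale understates differences of low genes. The model was tested on simulated data. Pairs of single libraries have no test. Lists are described by counts and medians only. The members and lists were chosen with earlier results of these data known. Members with an unadjusted p under 0.05, past the threshold between lines, past 2-fold in a pair with at least 5 FPKM, or of central role were given in every library, and up to 4 genes of other lists by size of difference were named. Promoter sequences and starts are those of RefSeq, GRCh38.p14. Alternatives covered pseudocount, filter, scaling, trend, terms, control and each library left out.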

Additional observations from a re-analysis of the deposited data

Results flagged for a closer look

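For 4 members (10.0%) every COL11A1-high library lay on one side of the low ones in A2780 and on the other side in OVCAR3. A larger share of all genes tested, 23.5%, showed this pattern. PDK1, the inhibitor of pyruvate dehydrogenase, had a high minus low difference of -1.002 in A2780 and 0.26 in OVCAR3 on the log2(FPKM + 1) scale (interaction 1.26, limma, adjusted p = 0.357). VEGFA was at -0.56 in A2780 and 0.50 in OVCAR3 (interaction 1.06, limma, adjusted p = 0.541). The hydroxylase EGLN1 was at -0.45 and 0.36 (interaction 0.80, limma, adjusted p = 0.396). EPAS1 went the other way, at 0.40 in A2780, where it stayed under 1 FPKM, and -0.14 in OVCAR3 (interaction -0.54, limma, adjusted p = 0.508). None of the 4 interactions passed the threshold, and OVCAR3 has 1 library per group. For VEGFA, A2780-COL11A1 was close to A2780-shCOL11A1, at 76.9 against 81.1 FPKM. PDK1 was at 0.848 FPKM in OVCAR3-GFP and 1.22 FPKM in OVCAR3-COL11A1, the library with the lowest relative depth, 0.497.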

How the results depend on the processing

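The negative group medians, -0.51 for glycolytic and -0.20 for hypoxia-induced members, kept their sign under every alternative run; leaving out 1 library gave -0.63 to -0.35 and -0.32 to -0.06. Both scalings left 22 of 24 and 9 of 14 differences negative. The 6 members at an unadjusted p under 0.05 became 3 with no cell line term, and 1 to 10 with 1 library left out. Between the lines, 17 members became 11 with no filter on low values and 7 to 22 with 1 library left out, over 3181 to 7346 genes called. The calls of ENO1, EGLN3, ADM, CA12 and PFKP were among those lost. For the interaction, 0 genes became 1495 with no filter, and 0 to 2856 genes and 0 to 5 members passed with 1 library left out. The cause of these shifts was not tested. Against A2780-shCOL11A1 in place of the scrambled control, the A2780-COL11A1 medians of -0.49 and -0.51 became 0.0061 (glycolytic) and -0.15 (hypoxia-induced). A pseudocount of 0.1 FPKM gave A2780-shCOL11A1 a hypoxia-induced median of -0.67. In OVCAR3 the hypoxia-induced median of 0.01 became -0.0779 with median scaling and -0.0215 with quantile normalization, so its sign is not settled. Depth per library is unknown, which limits members under 1 FPKM. The labels carry no replicate numbers, so libraries could be matched by cell line only. With just the overexpressing libraries and a control of their line, the group medians were -0.60 (glycolytic) and -0.34 (hypoxia-induced). In that run 22 of 24 and 11 of 14 differences were negative. The interaction could not be fitted without an OVCAR3 library.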
